A study of Mus musculus with 3 samples.

Results

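*Pax1*, *Pax9*, *Nkx3-2*, *Foxc1*, *Foxc2*, *Meox1*, *Meox2*, *Uncx*, *Tcf15* and *Tbx18*, 10 transcription factors of the somite and of its ventral derivative, the sclerotome, were taken by name from the count tables of 3 single-cell libraries. All 10 were among the 27755 genes of the D10 culture and of the E14.5 tail, and 9 were among the 25936 genes of D6 PM, in which *Nkx3-2* was not analysed. The cultures were mouse embryonic stem cells that carry the ScxGFP tendon reporter. D6 PM was the culture at day 6, which the label names as embryoid bodies and the methods as embryoid body formation up to day 2 followed by induction of paraxial mesoderm. It was treated with LDN-193189, which blocks BMP receptors, at 500 nM and from day 2 also with 5 μM CHIR, an activator of WNT signaling. The D10 culture was a monolayer of the same protocol after 4 more days with FGF2 and TGFβ1, each at 10 ng/mL, and with SAG, an agonist of hedgehog signaling, at 100 nM, sampled as a whole culture. The E14.5 tail was cut from the mouse embryo, and the number of embryos is not given in the sources used here. Each condition was 1 library, so that no test between conditions was possible, and all intervals in parentheses are exact 95% intervals that cover counting error only. Each captured transcript carries a UMI, and levels are given as CPM, in which the UMI count of a gene in a whole cluster is scaled to a total of 1000000 for that cluster.

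Somites are blocks of paraxial mesoderm that form along the neural tube. Under hedgehog signaling from notochord and floor plate, their ventral cells become sclerotome, from which vertebrae and ribs arise, and the cells that border the muscle layer become the syndetome, the source of axial tendons marked by *Scx*. *Pax1* and *Pax9* are paired-box factors of the sclerotome that act upstream of *Nkx3-2* and of cartilage genes. *Uncx* marks the caudal and *Tbx18* the rostral compartment of each somite. *Foxc1* and *Foxc2* are forkhead factors of paraxial mesoderm and early somites, *Meox1* and *Meox2* are homeobox factors of somite compartments, and *Tcf15* (paraxis) is a bHLH factor that is needed for epithelial somites.

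The upstream sequences of *Pax1* and *Pax9* are shown because both genes had their highest level in the culture and in the tail in the same cluster. They are the 250 bases before the start site that the RefSeq table of GRCm38.p6 gives for each gene, at chr2:147364744-147364993 and chr12:56695221-56695470, both on the plus strand, with CG dinucleotides in capitals.
Pax1: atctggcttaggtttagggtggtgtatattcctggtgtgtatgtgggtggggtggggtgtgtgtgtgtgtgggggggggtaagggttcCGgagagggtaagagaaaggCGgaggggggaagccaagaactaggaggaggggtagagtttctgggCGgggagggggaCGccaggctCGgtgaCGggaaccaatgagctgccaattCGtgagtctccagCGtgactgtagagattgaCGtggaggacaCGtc
Pax9: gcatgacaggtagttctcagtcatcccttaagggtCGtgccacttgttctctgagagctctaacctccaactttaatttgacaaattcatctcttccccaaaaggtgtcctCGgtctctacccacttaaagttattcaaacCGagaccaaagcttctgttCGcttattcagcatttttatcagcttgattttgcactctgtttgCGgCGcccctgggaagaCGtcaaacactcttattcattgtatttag
In GENCODE M21, which uses the same assembly, each window overlapped 1 transcript and 0 exons, so that it lay in an intron of that transcript. The window of *Pax1* held 10 CG dinucleotides at 58.8% GC, and that of *Pax9* held 7 at 43.6% GC. The table matched 7 members, and *Foxc2*, *Meox1* and *Tcf15* were not matched. Among the 7, the 250 bases before *Foxc1* held the most CG dinucleotides, 29 at 70.8% GC. Over the full 300 bases of the table, neither the GLI motif GACCACCCA, the TCF/LEF motif ATCAAAG nor the retinoic acid response element, 2 direct repeats of AGGTCA with 5 bases between them, was found on either strand in any of the 7. Of 32851 promoters of that length, 0.253%, 3.73% and 0.00913% held these motifs. The motifs do not overlap each other, and the absence of a match says only that these letters are not in this window.

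D6 PM held 5954 cells in 6 clusters, the D10 culture 7821 cells in 14 and the tail 2052 cells in 13, by the cluster codes that the authors deposited. Median UMIs per cell were 8171, 5622 and 13512. By their numbers of cells, codes 1 and 2 of the culture and the tail are the clusters that the study calls tendon and proliferating tendon. Its fibrocartilage cluster has the cell numbers of code 3, but in D10 code 3 the 6 cartilage markers summed to 49.5 CPM and 6 pluripotency markers to 5199 CPM. Code 4, which held the most of the cartilage markers in both libraries, is therefore called cartilage-like here from these markers, and which cluster the study meant cannot be settled from the files. Code 4 of D6 PM is called somite-like from its markers. D6 code 4 had 700 cells, D10 codes 1, 2 and 4 had 2964, 1353 and 855, and the same codes of the tail had 685, 186 and 241. The study clustered culture and tail on a shared space of their most variable genes and assigned culture cells to the tail clusters. Whether the 10 factors were among those genes, and which genes were used for D6 PM, is not given in the sources used here. Differences between clusters of 1 library are therefore descriptions. The same code need not be the same cell type. In code 3, pluripotency markers summed to 5199 CPM in the culture and 6.67 CPM in the tail. The summed level of 6 somite markers, of which *Meox1* is 1, was 990 CPM in D6 code 4 and 21.8 to 235 CPM in the other D6 clusters, and 3 of the 6, *Aldh1a2*, *Twist1* and *Meox1*, were at least 2-fold higher there than in the other D6 cells. The other 3 were not, with *Pax3* at 25.0 against 23.0 CPM, *Pdgfra* at 18.1 against 25.4 CPM and *Tbx6* at 0.987 against 1.53 CPM. The 6 tendon markers summed to 7269 and 7003 CPM in D10 codes 1 and 2, against 145 CPM in D10 code 3. In tail codes 1 and 2 they summed to 6312.5 and 5006 CPM. The 6 cartilage markers summed to 4194 CPM in D10 code 4 and 8461 CPM in tail code 4. Libraries shared 3 to 10 cell barcodes pairwise.

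The first comparison asked which of the factors marked the somite-like cluster of D6 PM. In D6 code 4, 8 of the 9 factors were at least 2-fold higher than in the other D6 cells, and *Pax9* was lower. *Meox1*, among the 8, is 1 of the somite markers from which D6 code 4 was named, so that its place in this count is no finding. Of all 18550 genes with at least 20 UMIs in that comparison, 29.8% were past 2-fold, 11.5% higher and 18.3% lower. The median log2 ratio of the members, which was the value of *Meox1*, was 6.19, and that of all genes was -0.01. *Foxc1* was measured at 221 CPM (209 to 233) in code 4 and 2.99 CPM in the other cells, a ratio of 73.7 (61.8 to 88.5). *Foxc2* was at 64.5 and 0.612 CPM, a ratio of 105 (71.8 to 161). The next D6 cluster for both forkhead genes was code 5, at 10.7 CPM for *Foxc1* and 2.54 CPM for *Foxc2*, so that both were concentrated in code 4.

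*Meox1* was at 187 CPM (176 to 198) in D6 code 4 and 2.56 CPM elsewhere, with a ratio of 73.2 (60.5 to 89.3). Its partner *Meox2* was at 31.6 and 0.197 CPM, with a ratio of 161 (82.9 to 357) that rests on 9 UMIs outside code 4. The ratio of *Meox2* reached 269 when the CPM of single cells were averaged, the only ratio of any member that an alternative moved by over 1.5-fold. *Tcf15* was less restricted than the homeobox genes, with 113 CPM (105 to 122) in code 4, 29.1 CPM in code 1 and 28.3 CPM in code 2, and a ratio over all other cells of 5.18 (4.70 to 5.72). In code 2 the summed level of 6 pluripotency markers was 7801 CPM, against 21.6 to 61.5 CPM in the other D6 clusters, and *Tcf15* is also known from pluripotent cells that are primed to differentiate.

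Both compartment markers were present in D6 code 4. *Uncx* was at 17.4 CPM (14.3 to 21.1) against 0.109 CPM in the other cells, a ratio of 160 (66.3 to 502). *Tbx18* was at 22.5 CPM (18.9 to 26.6) against 2.42 CPM, a ratio of 9.30 (7.18 to 12). Most of the *Tbx18* outside code 4 was in code 5 at 14.8 CPM (11.8 to 18.2), a cluster in which 5 fibroblast markers summed to 5737 CPM.

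Few UMIs of the sclerotome factors were counted in D6 code 4. *Pax1* was at 7.40 CPM (5.40 to 9.91) from 45 of the 50 *Pax1* UMIs of that library. *Pax9* was at 6.75 CPM in code 4 and 21.8 CPM elsewhere, a ratio of 0.309 (0.221 to 0.423), with 38.4 CPM (35.6 to 41.3) in code 1 and 33.8 CPM (29.8 to 38.2) in code 3. In these clusters 6 endoderm markers summed to 1001 and 849 CPM, against 41.8 CPM in code 4, and *Pax9* is also known from pharyngeal endoderm. *Pax1* and *Pax9* thus had their highest D6 levels in different clusters. D6 code 4 also held muscle genes, with 291 CPM over 4 of 4 markers against 0.528 to 7.15 CPM in the other clusters, and their part in these ratios was not tested. The level of *Myog*, a muscle differentiation factor, was 78.6 CPM there.

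**Figure D1:**
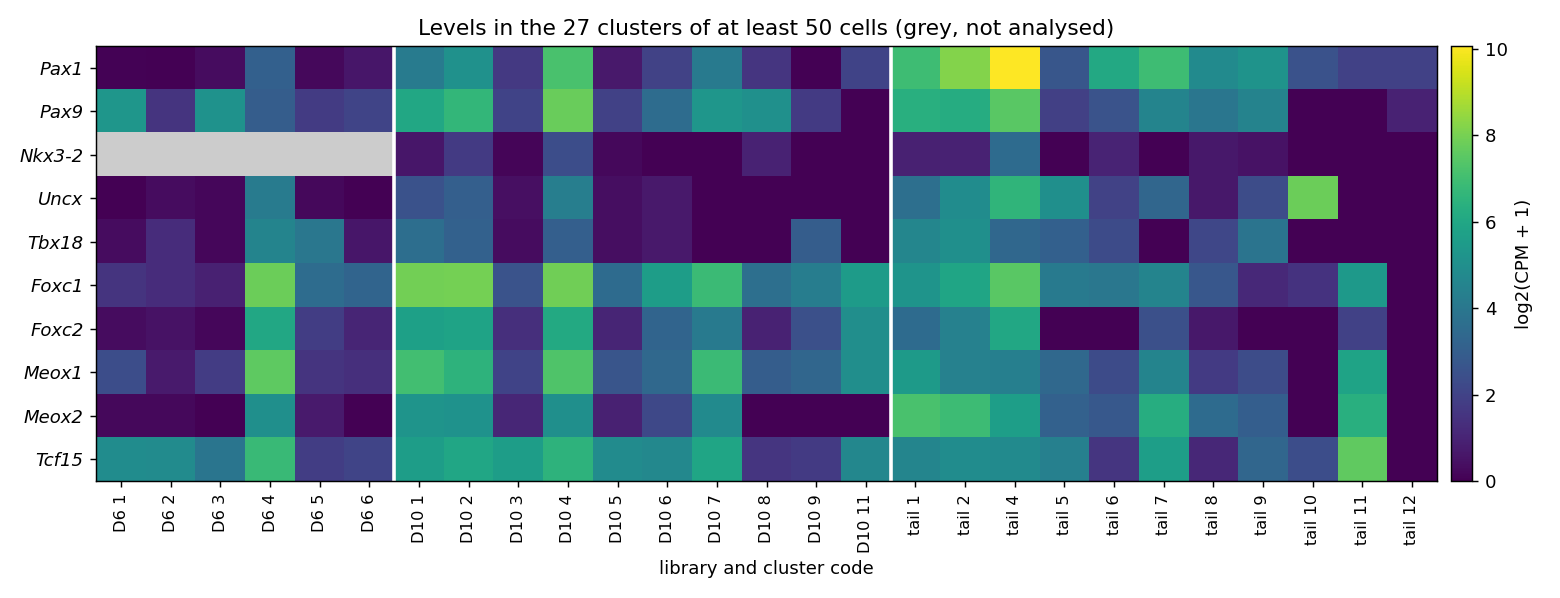
Levels of the 10 factors, as log2(CPM + 1), in the 27 clusters of at least 50 cells (columns, by library and cluster code; white lines part the libraries). In D6 PM *Foxc1*, *Foxc2*, *Meox1*, *Meox2* and *Uncx* are concentrated in code 4, and *Tcf15* and *Tbx18* less so. In the culture and the tail *Pax1* is brightest in code 4, and *Uncx* and *Tcf15* have bright cells in tail codes 10 and 11.

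The next comparison asked how the factors differed between the tendon and cartilage-like clusters of the culture. In D10 code 4, 4 of 10 members were at least 2-fold higher than in code 1 and 0 were lower. Of 14234 genes tested, 12.3% were past 2-fold, 3.84% higher and 8.46% lower, and the median log2 ratio was 0.65 for the members and 0.00 for all genes. The 4 members were *Pax1*, *Pax9*, *Nkx3-2* and *Uncx*. *Pax1* was at 17.2 CPM (15.3 to 19.4) in code 1, 32.8 CPM (29.4 to 36.4) in code 2 and 143 CPM (131 to 157) in code 4, so that code 4 exceeded code 1 by 8.30-fold (7.16 to 9.65). *Pax9* was at 65.0, 102 and 215 CPM in the same order, with a ratio of code 4 to code 1 of 3.30 (3.0 to 3.64). For both genes the intervals of the 3 clusters did not overlap. D10 code 7, whose cells were shallow, had 17.0 CPM of *Pax1* (7.32 to 33.4) from 8 UMIs, which overlapped code 1. Of markers tested, 3 of 4 endoderm, 2 of 3 endothelial, 2 of 4 mural and 2 of 5 fibroblast markers were lower in code 4 than in code 1. Of 6 tendon markers 4 were lower and 1 was higher. Endoderm markers summed to 14.4 against 58.4 CPM, and the part of these lists in the ratios was not tested.

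*Nkx3-2*, which encodes a repressor that promotes cartilage formation downstream of *Pax1* and *Pax9*, had the fewest UMIs of the members. It had 9, 24 and 14 UMIs in D10 codes 1, 2 and 4, each in a different cell, or 0.542, 2.24 and 4.21 CPM. The ratio of code 4 to code 1 was 7.76 (3.13 to 20.3), and the intervals of codes 2 and 4 overlapped. *Uncx* was at 4.76, 7.19 and 18.9 CPM, with a ratio of 3.98 (2.81 to 5.61), whereas *Tbx18* was at 11.4, 7.75 and 7.22 CPM with a ratio of 0.633 (0.396 to 0.972). The caudal and rostral markers thus had opposite directions between the cartilage-like and tendon clusters of the culture.

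The other 5 members stayed within 2-fold in D10 code 4. *Foxc1* was nearly level at 244, 246 and 235 CPM in codes 1, 2 and 4, and its ratio of 0.965 (0.893 to 1.04) held 1. *Foxc2* was at 52.4, 56.7 and 68.6 CPM, a ratio of 1.31 (1.13 to 1.52). *Meox1* was at 130, 90.4 and 158 CPM, and *Meox2* at 36.0, 34.5 and 31.3 CPM. *Meox1* was therefore lowest in code 2, while the intervals of *Meox2* overlapped in all 3 clusters. *Tcf15* was at 48.0, 60.8 and 90.8 CPM with a ratio of 1.89 (1.65 to 2.16).

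In the proliferating cluster of the culture, D10 code 2, only *Nkx3-2* was past 2-fold over code 1, at 4.13 (1.85 to 10.1), where 7.59% of 14950 genes were past 2-fold, 4.0% higher and 3.59% lower. The median log2 ratio was 0.23 for the members and -0.08 for all genes. *Pax1* came next at 1.90 (1.62 to 2.23). Relative to the median gene, *Pax1* was at 2.02 and also past 2-fold. In code 2, 4 of 4 proliferation markers were higher than in code 1, with a sum of 3824 against 493 CPM, as were 4 of 5 cartilage markers, with a sum of 950 against 453 CPM. Their part in these ratios was not tested. D10 code 4 had the shallowest cells of the 3 clusters, with a median of 3696 UMIs against 4918.5 in code 1 and 7324 in code 2.

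In the tail, the cartilage-like cluster differed from the tendon cluster in 9 of the 10 members. In tail code 4, 6 members were at least 2-fold higher than in code 1 and 3 were lower. Of 14622 genes tested, 15.5% were past 2-fold, 4.68% higher and 10.9% lower, with a median log2 ratio of 1.73 for the members and -0.01 for all genes. *Pax1* was at 122 CPM (115 to 129) in code 1, 290 CPM (274 to 306) in code 2 and 1073 CPM (1038 to 1109) in code 4, a ratio of code 4 to code 1 of 8.82 (8.26 to 9.42). *Pax9* was at 80.3, 73.7 and 181 CPM with a ratio of 2.25 (2.02 to 2.51). The interval of *Pax1* in code 1 overlapped those of 2 smaller tail clusters, with 129 CPM (102 to 160) in the 38 cells of code 14 and 121 CPM (79.8 to 176) in code 7, whose median was 1881 UMIs. It lay above codes 6, 8 and 9, at 27.0 to 66.1 CPM. The intervals of *Pax1* were apart in codes 1, 2 and 4, whereas *Pax9* did not differ between codes 1 and 2 beyond counting error.

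*Nkx3-2* had 9, 4 and 35 UMIs in tail codes 1, 2 and 4, or 0.889, 0.924 and 10.6 CPM, and the ratio of code 4 to code 1 was 11.9 (5.61 to 28.2). *Uncx* was at 12, 29.1 and 95.5 CPM with a ratio of 7.99 (6.46 to 9.94). *Tbx18* was at 23.9, 31.6 and 9.37 CPM with a ratio of 0.392 (0.261 to 0.571), so that the compartment markers were again opposite in code 4.

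Both forkhead genes were at least 2-fold higher in tail code 4 than in code 1, whereas both stayed within 2-fold in the culture. *Foxc1* was at 36.3, 60.0 and 178 CPM in codes 1, 2 and 4, and *Foxc2* at 10.5, 20.3 and 65.3 CPM. The ratios of code 4 to code 1 were 4.90 (4.29 to 5.60) for *Foxc1* and 6.24 (4.92 to 7.95) for *Foxc2*. The homeobox pair was lower in code 4, with *Meox1* at 43.3, 20.6 and 19.4 CPM and *Meox2* at 144, 117 and 49.0 CPM in the same order. Their ratios were 0.447 (0.339 to 0.583) and 0.340 (0.288 to 0.401). *Tcf15*, at 22.9, 29.1 and 26.9 CPM, was the member within 2-fold in code 4. The notochord markers *T* and *Shh* were higher in tail code 4 than in code 1, at 16.9 against 0.198 CPM and 40.2 against 0.296 CPM. So were 4 of 5 epithelial markers, with a sum of 78.6 against 23.0 CPM. Lower in code 4 were 4 of 5 fibroblast markers and 2 of 2 mesothelium and epicardium markers tested. Mural markers, 4 of 5, were also lower, with a sum of 73.2 against 207 CPM. The part of all these markers in these ratios was not tested.

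Between the proliferating and tendon clusters of the tail, 3 of 9 members with enough UMIs were past 2-fold, as were 12.7% of 14756 genes, 5.21% higher and 7.5% lower. The median log2 ratio was 0.40 for the members tested and -0.15 for all genes. *Pax1* was higher by 2.38-fold (2.20 to 2.58) and *Uncx* by 2.43-fold (1.88 to 3.15) in code 2, and *Meox1* was lower, at 0.475 (0.374 to 0.598). Relative to the median gene, *Meox1* was at 0.528 and not past 2-fold, and *Foxc2* was at 2.16 and past it. In code 2, 6 of 6 cartilage markers were higher than in code 1, with a sum of 1416 against 265 CPM, as were 4 of 4 proliferation markers, with a sum of 3810 against 109 CPM, and their part in these ratios was not tested. Blood markers, 5 of 5 with UMIs, summed to 1410, 4226 and 2725 CPM in tail codes 1, 2 and 4.

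**Figure D2:**
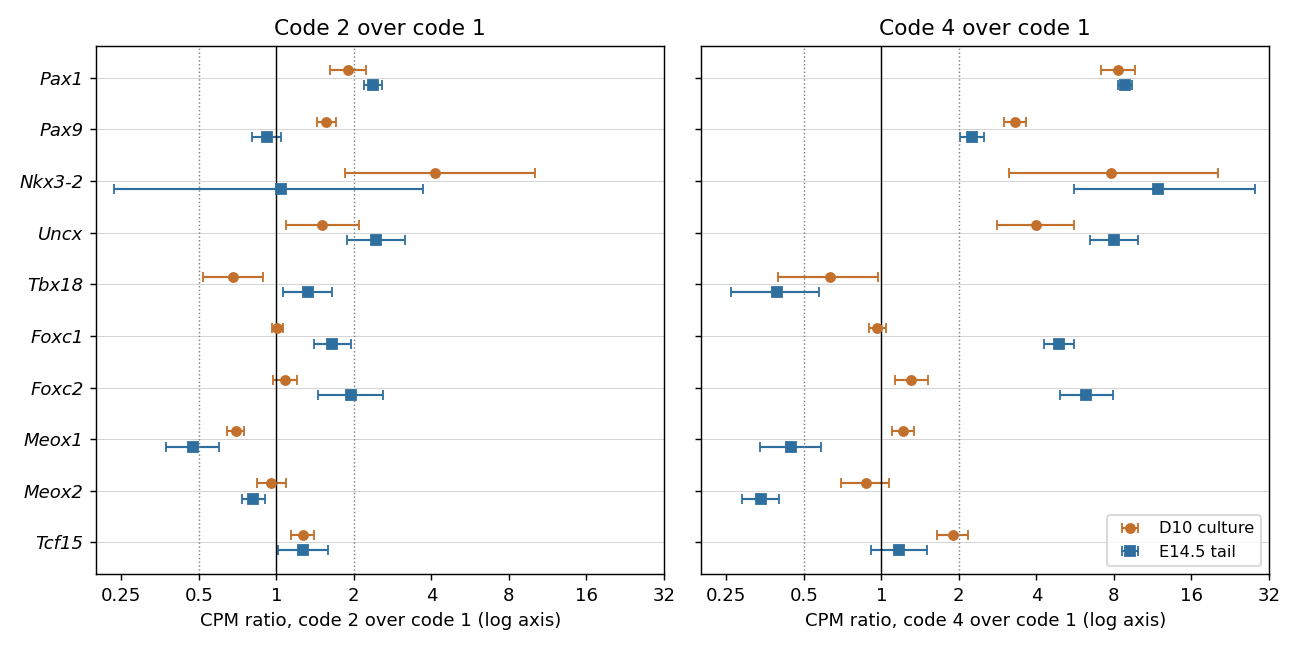
CPM ratios of code 2 (left) and code 4 (right) over code 1, on a log axis, for the D10 culture (circles) and the E14.5 tail (squares), with exact 95% counting intervals, a line at 1 and dotted lines at 2-fold. *Pax1* lies near 8-fold in both libraries in code 4, while *Foxc1* and *Foxc2* are within 2-fold in the culture and at 4.90 and 6.24 in the tail.

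The level of each factor in the culture was then set beside its level in the tail for the same cluster code. In code 1, 8 of the 9 members with enough UMIs were past 2-fold, 4 higher and 4 lower in the culture, where 30.1% of 15909 genes were past 2-fold, 9.41% higher and 20.7% lower. In code 2 it was 9 of 10, 5 higher and 4 lower, with a background of 23.9%, of which 8.38% higher and 15.5% lower. In code 4 it was 5 of 10, 2 higher and 3 lower, with a background of 22.7%, of which 7.78% higher and 14.9% lower. The median log2 ratio of the members tested was -0.31, 0.76 and -0.15 in codes 1, 2 and 4, and that of all genes was -0.25, -0.18 and -0.17. The counts of members past 2-fold were within 1.5-fold of these when each ratio was taken relative to that median. Proliferation markers, 4 of 4, were higher in the culture in code 1, at 493 against 109 CPM, and in code 4, at 450 against 134 CPM, but not past 2-fold in code 2. Blood markers summed to 0.654 to 4.04 CPM in the culture and 1410 to 4226 CPM in the tail. In code 1, neural, neural crest and glia, muscle, and mesothelium and epicardium markers were lower in the culture, 2 of 2 tested in each list. There 3 of 5 mural markers were also lower. Pluripotency and endoderm markers were higher in the culture in code 1, 3 of 4 tested in each list. The part of all these lists in these ratios was not tested.

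*Pax1* was the member furthest below the tail in all 3 clusters, at 0.142 (0.124 to 0.161) of the tail level in code 1, 0.113 (0.100 to 0.127) in code 2 and 0.133 (0.121 to 0.147) in code 4. *Pax9*, its paralogue, was within 2-fold in all 3, at 0.809, 1.38 and 1.19. *Uncx* was lower in the culture at 0.398, 0.247 and 0.198. *Tbx18* was at 0.477 and 0.245 in codes 1 and 2, and its ratio of 0.770 (0.432 to 1.36) in code 4 held 1. Both compartment markers were thus lower in the culture than in the tail wherever the interval left out 1. *Nkx3-2* was lower in code 4 at 0.398 (0.198 to 0.758), and at 2.43 (0.833 to 9.62) in code 2 its interval held 1.

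*Meox1* and *Tcf15* were higher in the culture in each of the 3 clusters, and *Foxc1* and *Foxc2* in codes 1 and 2. *Meox1* was at 3.0 (2.70 to 3.33) times the tail level in code 1, 4.40 (3.54 to 5.53) in code 2 and 8.16 (6.28 to 10.7) in code 4. *Tcf15* was at 2.10, 2.09 and 3.37 in the same order. *Foxc1* was at 6.71 and 4.09 in codes 1 and 2 but at 1.32 (1.19 to 1.47) in code 4, and *Foxc2* followed with 5.0, 2.79 and 1.05. *Meox2* went the other way from *Meox1*, with 0.25, 0.294 and 0.638. The 2 homeobox genes therefore had opposite directions between culture and tail in each of the 3 clusters.

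**Figure D3:**
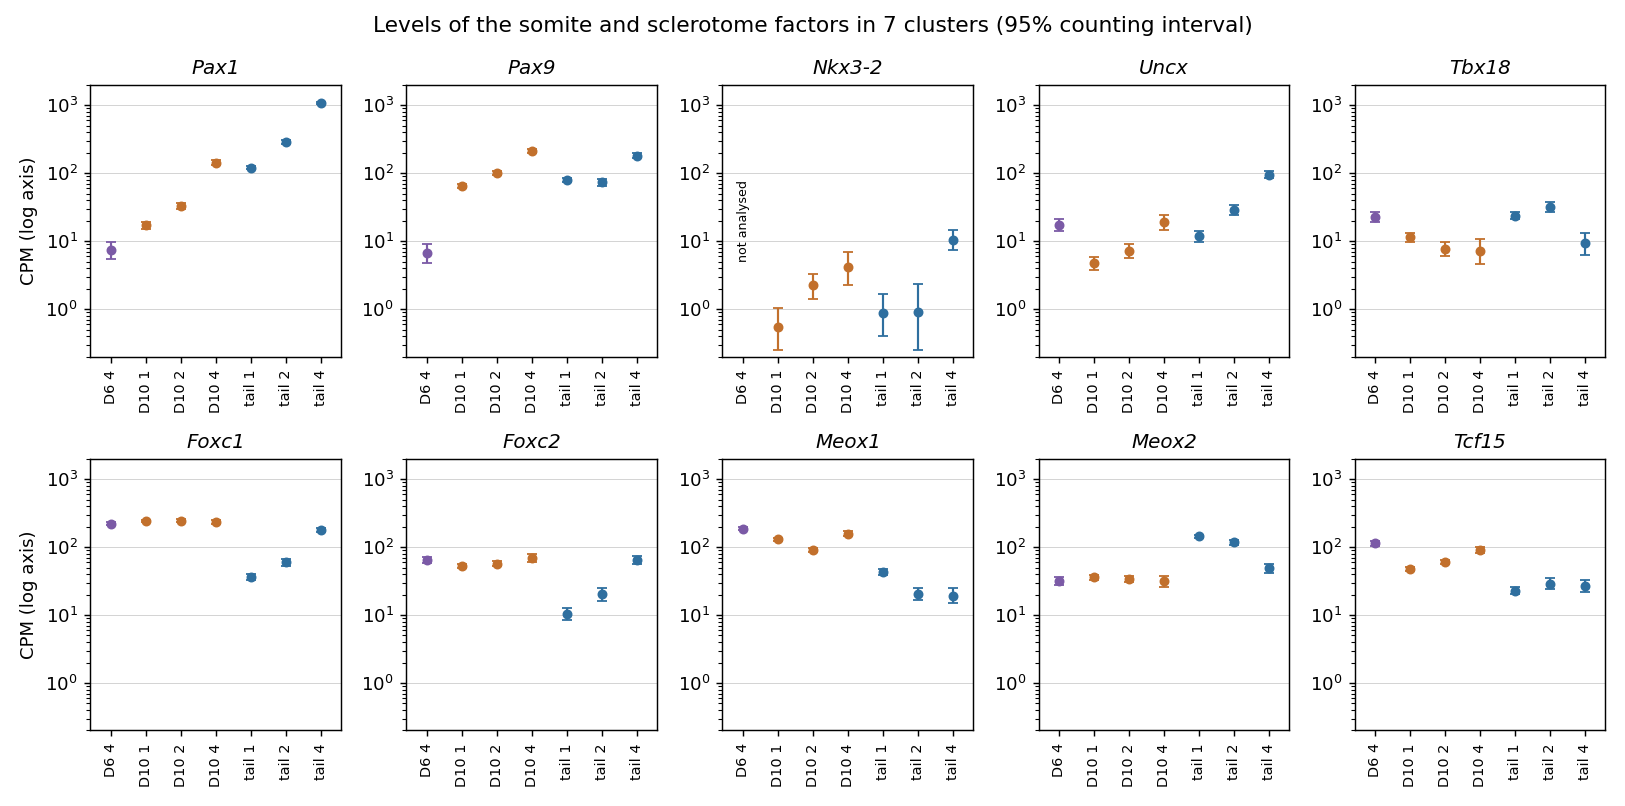
CPM of each factor on a log axis in D6 code 4 and in codes 1, 2 and 4 of the D10 culture and the E14.5 tail, with exact 95% counting intervals. *Pax1* is lowest in D6 code 4 and highest in tail code 4 at 1073 CPM, and *Foxc1* is nearly level from D6 code 4 through the culture at 221 to 246 CPM.

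From the somite-like cluster of D6 PM to codes 1 and 4 of the D10 culture, *Pax1* and *Pax9* were the members at least 2-fold higher. In D10 code 1 against D6 code 4, 4 of 9 members were past 2-fold, 2 in each direction, as were 28.9% of 15022 genes, 13.8% higher and 15.1% lower. In D10 code 4 against the same cells it was 3 of 9, a share near the background of 27.2% of 13004 genes. Of these genes 11.2% were higher and 16% lower. The median log2 ratio of the members was -0.30 and 0.09, and that of all genes was -0.16 and -0.14. These comparisons share the D6 cells, and the D10 clusters are those compared above. Muscle markers, 4 of 4, were lower in both D10 clusters, with sums of 291 CPM in D6 code 4 and 1.99 and 0.601 CPM in D10 codes 1 and 4. Epithelial markers, 3 of 3 tested, were also lower in both. Fibroblast markers were higher, 5 of 5 in code 1 and 4 of 5 in code 4. The part of these lists in these ratios was not tested. *Pax9* was at 9.63 (7.05 to 13.5) times the D6 level in code 1 and at 31.8 (23.2 to 44.7) times in code 4. *Pax1* was at 2.33 (1.70 to 3.26) and 19.3 (14.2 to 26.9) times.

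*Uncx* and *Tcf15* were lower in D10 code 1 than in D6 code 4, at 0.273 (0.201 to 0.369) and 0.424 (0.383 to 0.471). In D10 code 4 they were at 1.09 (0.782 to 1.5) and 0.802 (0.698 to 0.920). *Tbx18* was at 0.505 (0.404 to 0.634) in code 1 and 0.320 (0.198 to 0.497) in code 4. The forkhead and homeobox genes stayed close to their D6 level in both D10 clusters, with ratios of 0.693 to 1.14, and *Foxc1* was at 1.11 and 1.07.

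Some of the factors were also present in other cell types of the tail, and *Tcf15*, *Uncx* and *Meox1* had their highest tail levels there. *Tcf15* was highest in tail code 11, at 197 CPM (175 to 221), *Meox1* was at 56.5 CPM there against 43.3 CPM in code 1, with overlapping intervals, *Meox2* at 81.2 CPM and *Foxc1* at 41.7 CPM. Tail code 11 had 71 cells and 5264 CPM of 5 endothelial markers, and *Meox2* and *Tcf15* are also known from capillary endothelium. *Uncx* was highest in tail code 10, at 224 CPM (202 to 248), a cluster of 137 cells with 4840 CPM of 5 neural markers. Its *Uncx* level was above the 95.5 CPM (85.3 to 107) of tail code 4, with no overlap, and *Pax1* was at 4.74 CPM in the same cells. *Uncx* is also known from developing neurons. In the culture, *Tcf15* was at 47.2 CPM (43.4 to 51.3) in code 3, a cluster with 5199 CPM of 6 pluripotency markers, which did not differ from the 48.0 CPM of code 1 beyond counting error. *Meox1* was at 117 CPM (87.8 to 152) in D10 code 7, whose 257 cells had a median of 1424 UMIs.

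Shares of cells with a UMI were compared after each cell had been thinned at random to 3000 UMIs, which left out 1006, 1157 and 100 cells of D6 PM, the culture and the tail. In D6 code 4, 47.4% of 606 cells (43.3 to 51.4) had a *Foxc1* UMI and 27.7% had a *Meox1* UMI. In the same cells, *Tcf15* was detected in 23.1%, *Foxc2* in 16%, *Meox2* in 8.75%, *Tbx18* in 6.6%, *Uncx* in 4.79%, *Pax9* in 1.82% and *Pax1* in 1.49%. Unthinned, 72.6% of the cells had a *Foxc1* UMI and 4.57% a *Pax1* UMI. In D6 code 2, taken as background, the shares were 0 to 0.654% for all members but *Tcf15*, at 6.64%, with a median depth of 11208 UMIs against 7709 in code 4.

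*Foxc1* was detected in the same share of the *Scx* clusters of the culture, 49.1%, 49.5% and 48.4% in codes 1, 2 and 4. *Pax1* was detected in 4.01% (3.29 to 4.84), 7.23% (5.90 to 8.75) and 23.6% (20.3 to 27.0) of the cells of these clusters. *Pax9* was detected in 16.1%, 24.3% and 38.5%. Shares of both genes thus had the order of their CPM, with intervals that did not overlap, and unthinned they were 28.9% and 47.1% in code 4. In D10 code 3, the background at a median depth of 10369.5 UMIs, 9 members had shares of 0 to 1.48%. The share of *Tcf15* in D10 code 3, 10.6% (8.86 to 12.6), was close to that of code 1, 11.7% (10.5 to 13.0). With their pluripotency markers, D10 code 3 and D6 code 2 are no background for *Tcf15*.

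In the tail, *Pax1* was detected in 14.0% (11.5 to 16.9), 26.3% (20.2 to 33.3) and 68.8% (62.5 to 74.6) of the thinned cells of codes 1, 2 and 4, and unthinned in 85.9% of code 4. *Uncx* was detected in 2.36%, 5.91% and 20.8%, and in 44.5% (36.0 to 53.3) of tail code 10. *Foxc1* was detected in 9.29%, 16.7% and 42.1%, while *Meox2* was detected in 20.5%, 19.4% and 12.9%. In tail code 12, the background at a median depth of 8391.5 UMIs, all 10 members were at 0 of 125 cells, and the limit of 3 counts in 125 cells is 2.40%. Blood markers made up 830840 CPM of that cluster, which leaves few of its 3000 UMIs for other genes. In the neural-marker cluster, tail code 10, the share of *Pax1* was 1.46% (0.177 to 5.17), that of *Foxc1* and of *Tcf15* was 0.73%, and the other members except *Uncx* were at 0 of 137 cells. *Nkx3-2* was at 0.295%, 0.538% and 1.67% in tail codes 1, 2 and 4. These shares are below the 2.40% limit of code 12, but 3 counts are a smaller share in clusters with more cells. Unthinned, *Nkx3-2* was detected in 12.4% of tail code 4.

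The level of *Pax1* in the tail was carried by more UMIs per cell as well as by more cells. In tail code 4 the cells with *Pax1* had a median of 13 UMIs of the gene and at most 54, and 8.70% of them had 1 UMI. In D10 code 4 the median was 1 and the maximum 10, at a median depth of 3696 UMIs per cell against 13136. *Meox1* had a median of 3 UMIs in the cells of D6 code 4 that held it, and at most 26. No cell held more than 2.29% of the *Meox1* UMIs of D6 code 4 or more than 1.52% of the *Pax1* UMIs of tail code 4.

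**Figure D4:**
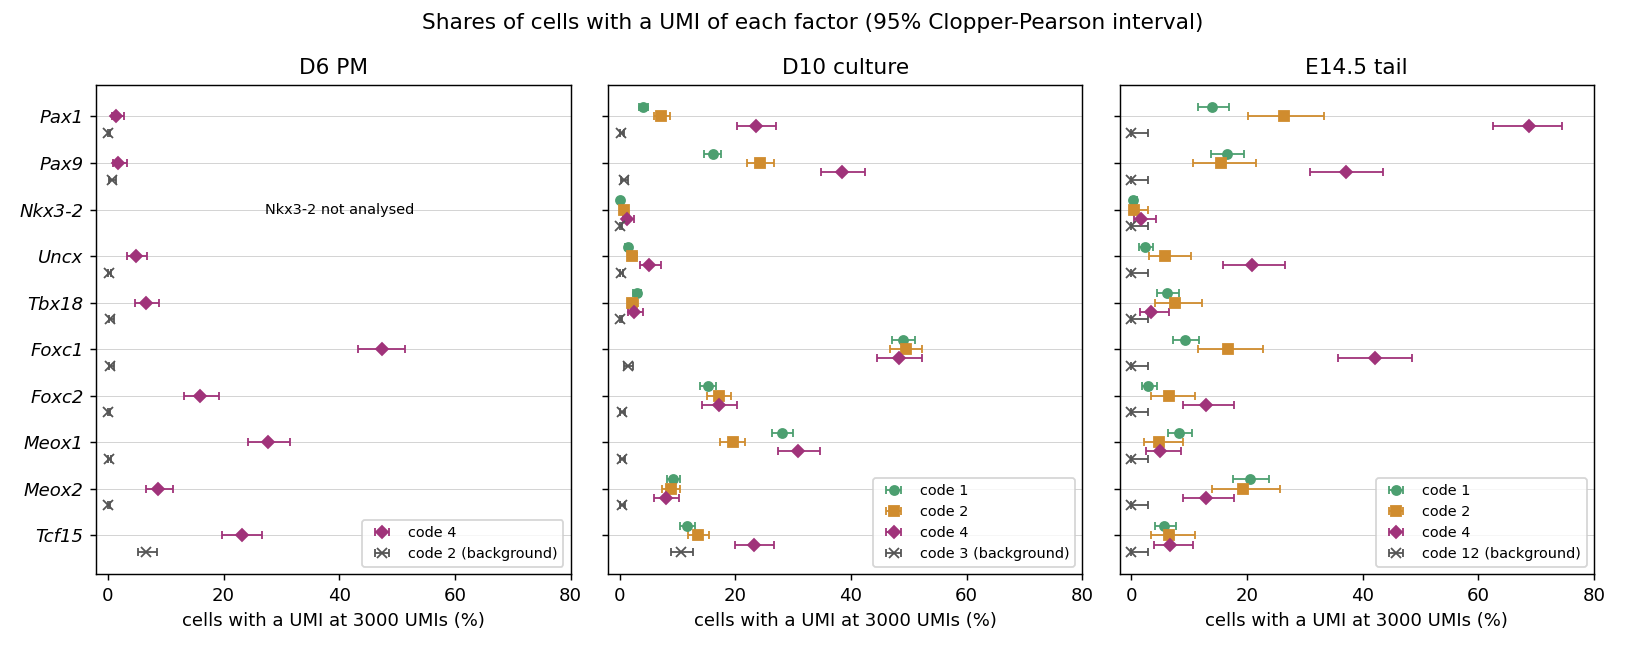
Share of cells with a UMI of each factor after thinning to 3000 UMIs per cell, with exact 95% Clopper-Pearson intervals, in the clusters described and in 1 background cluster of each library (crosses). *Pax1* reaches 68.8% in tail code 4 and 23.6% in D10 code 4, and *Tcf15* in D10 code 3 is as frequent as in D10 code 1.

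At the same depth, cells held a mean of 1.38 members (SD 1.07 over cells) in D6 code 4, and 21.1% of these cells had a UMI of 0 members. The mean was 1.38 in D10 code 1, 1.45 in D10 code 2 and 1.99 in D10 code 4. In the tail it was 0.861, 1.10 and 2.11 in codes 1, 2 and 4. Code 4 thus had the most members per cell in both libraries, with at least 3 members in 30.7% of its cells in the culture and 34.6% in the tail. No cell of the 7 clusters held more than 7 members.

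Cells with UMIs of both genes of a pair were counted and set beside the product of the 2 shares, for pairs with at least 5 cells expected. *Pax1* and *Pax9* were found together more often than that product within both tendon clusters of each library. In D10 code 1, 34 cells had both, against 16.7 expected, or 1.31% (0.909 to 1.83) against 0.644%. In tail code 1, 30 cells had both against 15.7, or 4.42% (3.0 to 6.26) against 2.31%. The ratio to the expected number was 2.03 in D10 code 1, 1.87 in D10 code 2, 1.91 in tail code 1 and 2.23 in tail code 2. In code 4 of the culture and the tail it was 1.05 and 1.16, and both intervals held the product.

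*Pax1* was also found with the cartilage genes *Sox9* and *Col2a1* above the product of shares in codes 1 and 2 of both libraries. With *Col2a1*, the main collagen of cartilage, the ratio was 1.57 and 1.6 in D10 codes 1 and 2 and 2.11 and 1.96 in tail codes 1 and 2. With *Scx*, *Pax1* was above the product in tail codes 1 and 2, at 1.91 and 1.85, while in D10 codes 1 and 2, where over 90% of cells had *Scx*, the intervals held it at 0.988 and 1.0.

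Among the somite factors, *Meox1* and *Tcf15* were found together in 60 cells of D6 code 4 against 38.8 expected, or 9.90% (7.64 to 12.6) against 6.4%. *Foxc1* and *Foxc2* were found together in 48 cells of the same cluster against 45.9, and *Meox1* and *Meox2* in 16 against 14.7, with both products inside the intervals. *Foxc1* and *Myog* were together in 8 cells of D6 code 4 against 17.0 expected, or 1.32% (0.572 to 2.58) against 2.81%. In tail code 1, *Meox2* and *Tcf15* were together in 21 cells against 8.0, and *Tbx18* was below the product both with *Scx*, 7 cells against 15.1, and with *Col2a1*, 2 against 8.80. *Uncx* and *Tbx18* were found together in 4 cells of D6 code 4 and in 0 cells of all 6 *Scx* clusters, where at most 1.67 were expected in a cluster, too few to read. Cells of 1 library share its depth and free RNA, and these counts are descriptions.

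**Figure D5:**
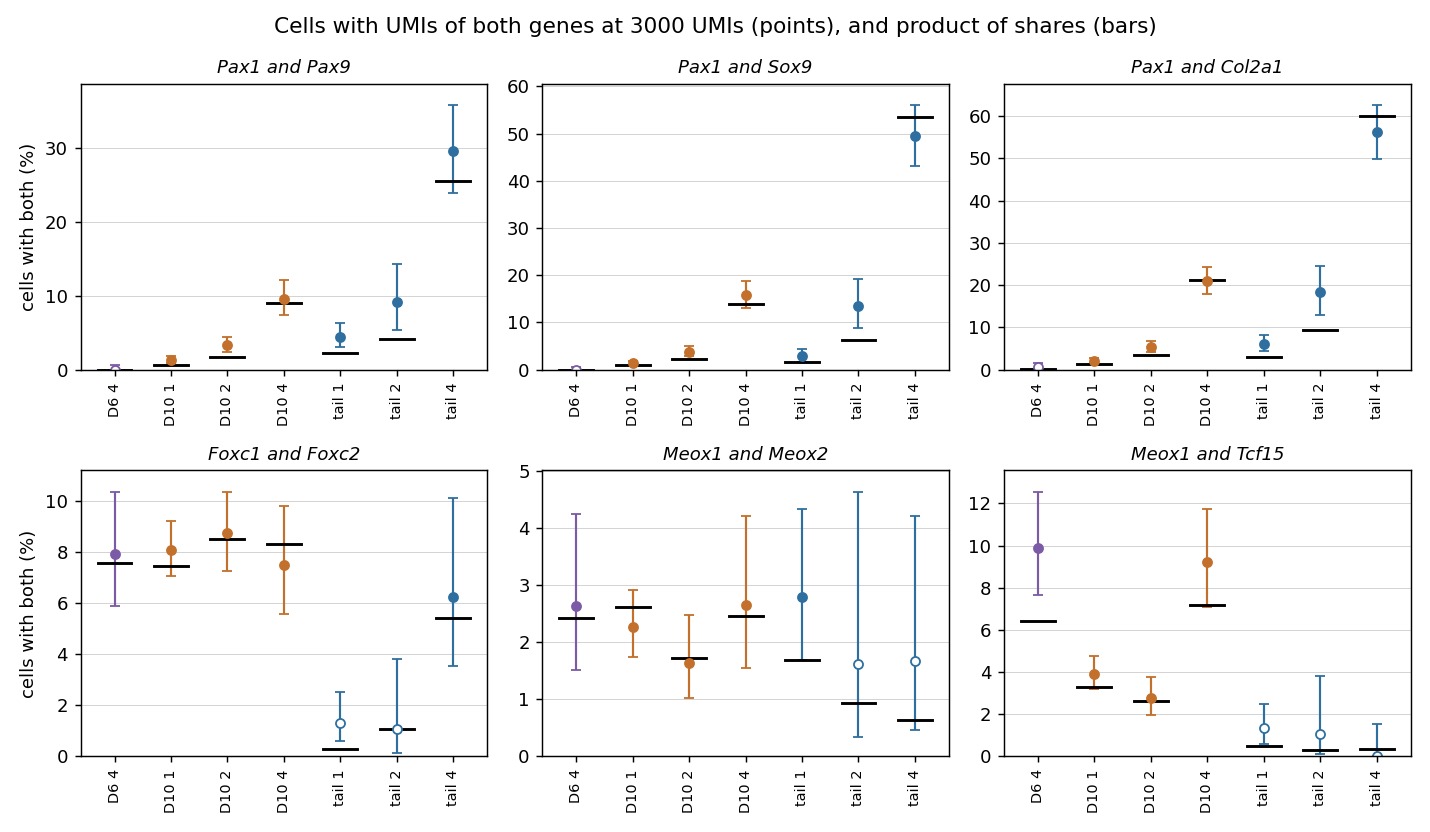
Share of cells with UMIs of both genes of 6 pairs at 3000 UMIs per cell (points, exact 95% Clopper-Pearson interval; open where fewer than 5 cells were expected) and the product of the 2 single shares (black bars). *Pax1* with *Pax9* lies above the bar in codes 1 and 2 of both libraries, and *Meox1* with *Tcf15* lies above it in D6 code 4.

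Over the 27 clusters of at least 50 cells in the 3 libraries, Pearson's r of log2(CPM + 1) was used to find the genes most like each member among 17187 genes with at least 100 UMIs. The clusters share libraries, depth and cell lineages, and the values are descriptions. *Foxc1* and *Foxc2* were most like each other, with r of 0.92, and *Foxc1* and *Meox1* followed at 0.91. *Pax1* was most like *AI646519*, a noncoding gene on the opposite strand that shares 869 bases with the *Pax1* locus in GENCODE M21, with r of 0.94, followed by *Col9a1*. *AI646519* was at 155 CPM in tail code 4, 49.0 CPM in D10 code 4 and 5.92 CPM in D6 code 4. The sources used here do not say whether the counting used strand, and without strand the reads of such a pair cannot be told apart.

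*Pax1* with *Pax9* had an r of 0.65, below the 0.80 of *Pax1* with *Meox2* and the 0.66 of *Pax1* with *Uncx*. *Pax9* was most like *Gpc3*, at 0.89, which was at 1363 CPM in D10 code 4 and 1225 CPM in tail code 4. *Uncx* was most like *Nlgn3* at 0.91, and *Tbx18* was most like *Fap* at 0.92 and *Pdgfrb* at 0.90. The best match of *Meox2* was *Glt8d2* at 0.84. *Tcf15* had the weakest best match, *Zbed3* at 0.76, and among the members it was least like *Tbx18*, at 0.09.

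Other genes of somite development were counted by the same 2-fold rule. Of 16 sclerotome partners and targets tested in D6 code 4, 13 were higher than in the other D6 cells and 1, *Hhip*, was lower. Among the 13 were *Zic1* at 791 and 4.74 CPM and *Gli1*, a hedgehog target, at 24.2 and 0.743 CPM. *Twist1*, also among the 13, is 1 of the somite markers from which D6 code 4 was named, so that its place in this count is no finding. Of 10 dermomyotome genes, which mark the dorsal somite and its muscle precursors, 6 were higher there and 2 lower, with *Myf5* at 35.2 and 0.0437 CPM. Of 12 presomitic genes 3 were higher and 4 lower, and *Mesp1* was at 10.0 and 0.939 CPM. The background shares of that comparison are those given above.

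In D10 code 4 against code 1, 6 of 17 sclerotome partners and targets were higher and 0 lower, where 3.84% and 8.46% of all genes were, among them *Sox9*, *Col2a1* and *Acan*. *Sox9*, the master regulator of cartilage, was at 108 CPM in code 1 and 410 CPM in code 4. In tail code 4 against code 1, 9 of 16 were higher and *Zic1* was lower, where 4.68% and 10.9% of all genes were, with *Sox9* at 63.4 and 1214 CPM. *Sox9*, *Col2a1* and *Acan* are in this list and among the cartilage markers from which code 4 was named, so that their place in both counts is no finding. Of 8 dermomyotome genes in that tail comparison 6 were lower and *En1* was higher, at 34.4 and 90.4 CPM. *Gli1* and *Ptch1*, which report hedgehog signaling, were higher in tail code 4, at 42.3 against 17.8 CPM and 385 against 99.4 CPM. In the culture *Gli1* was at 22.5 and 22.3 CPM in codes 1 and 4, and *Ptch1* was at 234 and 366 CPM, within 2-fold.

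From D6 code 4 to D10 code 1, 5 of 5 syndetome genes were higher and 6 of 10 dermomyotome genes were lower, with 0 higher, where 13.8% of all genes were higher and 15.1% lower. *Scx* was at 50.2 CPM in D6 code 4 and 2410 CPM in D10 code 1, and *Pax3*, a dermomyotome factor, was at 25.0 and 0.542 CPM. *Scx* and *Mkx* are also tendon markers, and the study identified its tendon clusters by markers that include *Scx*. Their place among the syndetome genes counted is therefore no finding. *Pax3* is also 1 of the somite markers from which D6 code 4 was named. In the same comparison 4 of 4 muscle markers were lower, with sums of 291 and 1.99 CPM, and 3 of 3 epithelial markers tested were lower, and their part in these counts was not tested. Of 17 sclerotome partners and targets 5 were higher and 3 lower, the latter a share near that of all genes, with *Hhip*, a hedgehog target, at 1.48 and 99.3 CPM.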

How the data were processed

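Cells were dissociated and captured by droplet 3′ single-cell RNA-seq, 1 library per condition (1 culture, 1 D6 PM culture and 1 tail sample), so that no p-value was computed. The deposited tables hold raw UMI counts per gene and cell, made by the authors with Cell Ranger, multi-mapping reads being ignored, with cells over 7.5% mitochondrial transcripts and the bottom and top 2% removed. Cluster codes were made by the authors with Seurat 3.0. Whether counting used strand, and the genome build of the single-cell data, are not given in the sources used here.

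From the counts, UMIs were summed by cluster and divided by their total (CPM). A gene with at least 20 UMIs over both groups was called at a 2-fold ratio. Intervals are exact Poisson, conditional binomial and Clopper-Pearson at 95%. The members and gene lists were chosen with earlier results of these data known. Genes are named as members, as list members, or as the best matches by r. Scrublet called 81, 116 and 9 cells of D6 PM, culture and tail as doublets, which were kept. The share in the tail was 0.439%. The code that computes ratios and intervals was checked on simulated counts, and no ratio of the report is a test. Python 3.11.15, NumPy 2.4.6, SciPy 1.17.1 and Scanpy 1.11.5 were used. A planned comparison of protein sequences was not run, for want of a protein table here. 1 gene of the lists is counted but not reported here by name.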

Additional observations from a re-analysis of the deposited data

Results flagged for a closer look

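Members whose ratio between clusters lay on opposite sides of 1 in the culture and the tail, with intervals that left out 1, were *Meox1* and *Tbx18*. *Meox1* in code 4 over code 1 was at 1.22 (1.10 to 1.34) in the D10 culture and 0.447 (0.339 to 0.583) in the tail. *Tbx18* in code 2 over code 1 was at 0.680 (0.519 to 0.885) in the culture and 1.32 (1.07 to 1.64) in the tail. With 1 library each, the difference between culture and tail was not tested.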

How the results depend on the processing

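No paired analysis was possible because each condition was 1 library. Of 97 ratios, 1 moved by over 1.5-fold under an alternative, that of *Meox2* in D6 code 4, and 3 crossed 1, *Foxc1* in D10 code 2 over code 1, *Foxc2* in D10 code 4 over tail code 4 and *Meox2* in D10 code 4 over D6 code 4. Of 207 recomputed shares, 107 moved beyond their interval, as the alternatives changed the depth. With a 1.5-fold limit, the number of members past it was 4 in place of 1 for D10 code 2 vs D10 code 1 and 5 in place of 3 for tail code 2 vs tail code 1. With a 3-fold limit it was 0 for tail code 2 vs tail code 1, 5 in place of 9 for tail code 4 vs tail code 1, 4 in place of 8 for D10 code 1 vs tail code 1 and 2 in place of 4 for D10 code 1 vs D6 code 4. With at least 100 UMIs it was 0 for D10 code 2 vs D10 code 1. *Foxc2* with *Uncx* over independence, D10 code 1, was at 0.178 at 3000 UMIs per cell, 1.16 at 5000 UMIs and 1.09 not thinned, from 1 cell against 5.63 expected, and the cause was not tested. With ratios relative to the median gene, an alternative chosen after seeing the data, the count was 2 for D10 code 2 vs D10 code 1 and within 1.5-fold of the main count in the other 9 comparisons. Depth limits *Nkx3-2*, with 4 to 35 UMIs in a cluster.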
